A study of Mus musculus with 6 samples.

Results

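Class I phosphoinositide 3-kinases (PI3K) and the genes that feed into or oppose them were followed in lymphoma B cells of E mu-Myc transgenic mice, a strain in which a Myc transgene under an immunoglobulin heavy chain enhancer drives B cell lymphoma. The 9 genes were chosen by symbol, with earlier results of these data known. They are the catalytic subunits Pik3ca, Pik3cb, Pik3cd and Pik3cg, the regulatory subunits Pik3r1, Pik3r2 and Pik3r5, the adaptor Pik3ap1 and the phosphatase Inpp5d. All 9 were among the 21448 genes of the table. Each also passed a filter on low values, a mean of at least 1 over the libraries, which left 10533 genes tested. Pik3cb passed through the labelled knockout libraries, since its wild type mean was below 1.

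RNA was sequenced from 6 libraries of cultured cells, 3 with the genotype wild type and 3 with the genotype PRDM15 KO, all on the E mu-Myc background and all grown with IL7. Per the labels' protocols, deletion of Prdm15 was induced with OHT at 50 nM for 24 hours, controls received ethanol for the same time, and cells were collected 3 days after the exposure. The titles give only the group and a replicate number, so it is inferred that the libraries labelled knockout are those given OHT, and an effect of OHT itself cannot be told apart from one of the deletion. The recombinase that OHT acts on is not given in the sources used here. Each group is described as 3 biological replicates, but no mice are named, so a p-value reflects only how far these samples spread, which may be technical. Libraries that carry the same number are called a pair or partners, and values are listed in the order of replicates 1, 2 and 3. PRDM15 is a zinc finger protein, and the series title ties it to B cell metabolism, so the comparison asks here whether the PI3K genes upstream of metabolic signalling differ between the groups.

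Class I PI3Ks phosphorylate the membrane lipid PIP2 to PIP3, which recruits AKT, BTK and other proteins to the membrane. The alpha, beta and delta catalytic subunits pair with a p85-type regulatory subunit that docks on phosphotyrosine, and the gamma subunit pairs with a regulatory subunit such as that of Pik3r5 and responds to G protein-coupled receptors. In B cells the delta subunit acts downstream of the B cell receptor, BCAP (encoded by Pik3ap1) is a cytoplasmic adaptor that offers docking sites to p85, and SHIP1 (encoded by Inpp5d) removes a phosphate from PIP3.

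Promoter sequences of 4 of the genes show the annotated starts of these transcripts. RefSeq (GRCm38.p6, another build than the mm9 named in the submitters' processing notes) held 13 start sites for the 9 genes, matched by symbol. Windows ran from 250 bases before to 20 bases after each start. Capitals mark GAGGAAGT (on the other strand ACTTCCTC), a form of the site of PU.1, an ETS factor of B and myeloid cells, and CACGTG, the E-box that MYC can bind, which reads the same on both strands. The 2 motifs share no overlap in these windows. Pik3cg and Inpp5d are shown as the 2 genes with the PU.1-type motif, Pik3ap1 as the one with the E-box and Pik3cd, at its most upstream start, as the catalytic subunit with the highest level per length.
Pik3cg, chr12:32208640-32208909, minus strand: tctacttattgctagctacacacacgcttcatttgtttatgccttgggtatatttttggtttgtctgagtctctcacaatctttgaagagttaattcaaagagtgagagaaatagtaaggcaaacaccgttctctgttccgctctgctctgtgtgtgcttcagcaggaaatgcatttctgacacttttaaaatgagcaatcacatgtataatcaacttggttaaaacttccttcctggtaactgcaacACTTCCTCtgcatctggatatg
Inpp5d, chr1:87620062-87620331, plus strand: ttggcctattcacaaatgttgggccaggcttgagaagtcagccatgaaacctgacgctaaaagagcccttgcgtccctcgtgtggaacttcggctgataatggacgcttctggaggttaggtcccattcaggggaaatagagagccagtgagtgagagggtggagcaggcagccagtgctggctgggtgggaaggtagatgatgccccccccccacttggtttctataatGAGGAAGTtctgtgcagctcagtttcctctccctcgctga
Pik3ap1, chr19:41385083-41385352, minus strand: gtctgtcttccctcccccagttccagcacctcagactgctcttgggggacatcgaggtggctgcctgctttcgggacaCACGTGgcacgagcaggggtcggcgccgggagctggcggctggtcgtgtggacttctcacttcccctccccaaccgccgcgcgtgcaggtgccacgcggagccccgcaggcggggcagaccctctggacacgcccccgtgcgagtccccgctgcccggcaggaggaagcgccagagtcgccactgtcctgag
Pik3cd, chr4:149698689-149698958, minus strand: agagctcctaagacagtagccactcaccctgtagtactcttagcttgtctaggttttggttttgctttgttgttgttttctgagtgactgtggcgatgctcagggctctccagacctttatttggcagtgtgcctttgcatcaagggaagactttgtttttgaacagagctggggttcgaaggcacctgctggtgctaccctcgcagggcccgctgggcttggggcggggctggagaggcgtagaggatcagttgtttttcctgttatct

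The PU.1-type motif began 20 bases before the start of Inpp5d and 2 bases before the upstream start of Pik3cg, and it recurred in the overlapping window of the other Pik3cg start. It was thus in 3 of the 13 windows, with the same Pik3cg site counted in both of that gene's windows, against 2.72% of all 32851 RefSeq windows of this length. The E-box, 172 bases before the start of Pik3ap1, was in 1 of the 13 windows, against 6.57% of all. Window and motifs were set after the sequences were seen, so neither count can be read as enrichment. G and C made up 39.3% of the printed Pik3cg window and 70.4% of that of Pik3ap1, with a median of 52.6% over all windows. These matches are descriptions of letters, and the read counts are sums over whole genes, so they do not show which start was used.

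The libraries held 28852951 to 47255421 reads assigned to genes, so every value of the 9 genes except most of those of Pik3cb and that of Pik3r5 in wild type replicate 1 rests on more than 100 reads. Replicate 1 of both groups stood apart from the other libraries on the first principal component, which held 54.6% of the variance. B cell markers were present throughout, with a summed level of 1829 to 2406 CPM (a gene's reads over the scaled library total, on the counts-per-megaread scale) in wild type and 1787 to 2371 in the labelled knockout. The summed level of 15 macrophage and myeloid markers, none of them at 0, was 243 to 297 CPM in wild type and 227, 2512 and 1366 in knockout replicates 1, 2 and 3. Ctss and Lyz2 made up most of these sums. Ctss was at 184 CPM in wild type replicate 1 and 190 CPM in knockout replicate 1, and Lyz2 at 1471 and 820 CPM in knockout replicates 2 and 3. T and NK cell markers, mostly Lck, summed to 24.8 to 78.4 CPM in wild type and 17.1 to 71.7 in the labelled knockout. Of these, Cd8a, Cd3g and Cd3d were highest in knockout replicate 2 (5.14, 2.68 and 1.08 CPM), while Lck and Ncr1 were not. Stromal and endothelial markers, mostly Pecam1, summed to 52.0 to 63.2 and 56.2 to 102 CPM. Markers of granulocytes and red cells stayed below 1.5 CPM in sum, S100a8, S100a9, Elane and Ly6g being at 0 in at least 1 library. Prdm15 itself had 29.2 to 47.3 CPM in wild type and 39.2 to 40.9 CPM in the labelled knockout. A sum over the gene does not show an exon deletion, so directions rest on the labels.

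Pik3cd, which encodes p110 delta, the catalytic subunit found mainly in leukocytes, was higher in the labelled knockout library of every pair. Pik3cd stood at 286, 295 and 427 CPM in the wild type libraries, against 398, 411 and 485 CPM in their knockout partners. Each knockout library lay above the wild type library of its number, by 1.39, 1.39 and 1.14 times, while wild type replicate 3 exceeded knockout replicates 1 and 2, so the groups overlapped. The log2 change of CPM + 1 was 0.38, with a 95% interval of -0.053 to 0.81 without the pairs and 0.18 to 0.58 in the paired limma fit. It did not pass in that fit (limma adjusted p = 0.113), without the pairs (limma adjusted p = 0.9998) or in edgeR with the pairs (adjusted p = 0.116). DESeq2 with the pairs called it higher (adjusted p = 6.99e-05).

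Pik3ca, which encodes the broadly expressed p110 alpha, had nearly equal levels in the groups. Pik3ca stood at 139, 175 and 172 CPM in the wild type libraries, against 139, 169 and 170.5 CPM in their knockout partners. Replicate 1 was lowest in both groups, and the knockout library of each pair was close to its wild type partner, with ratios of 0.999, 0.966 and 0.992. The paired interval of the log2 change ran from -0.14 to 0.099, around a value of -0.021 (limma adjusted p = 0.830).

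The ratio of Pik3cd to Pik3ca needs no scaling between libraries; this ratio and those below were chosen after the values were seen. It was 2.05, 1.69 and 2.48 in wild type and 2.86, 2.44 and 2.85 in the labelled knockout. It was higher in 3 of 3 pairs, with a log2 difference of 0.40, and knockout replicate 2 lay just under wild type replicate 3. An exact two-sided permutation of the group labels over all libraries, which ignores the pairs, gave p = 0.2 (smallest possible 0.1). The ratios of Pik3cd to Inpp5d and to Pik3r1 were also higher in 3 of 3 pairs, with log2 differences of 0.37 and 0.25 and the same exact permutation p of 0.2. Adjusted over these 3 ratios, each p was 0.2.

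Pik3cg, which encodes p110 gamma, was a low transcript that differed more between replicate numbers than between groups. Pik3cg stood at 7.11, 13.8 and 35.5 CPM in the wild type libraries, against 15.5, 15.9 and 47.6 CPM in their knockout partners. Wild type libraries spanned 5.002 times from lowest to highest, and the groups overlapped over most of that range. Within pairs the knockout library was 2.18, 1.15 and 1.34 times the wild type one, a log2 change of 0.54 with a paired interval of 0.11 to 0.98 (limma adjusted p = 0.184, DESeq2 with the pairs 0.0785). Without the pairs the limma interval was -1.07 to 2.16.

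Pik3cb, which encodes p110 beta, had few reads. The wild type libraries held 32, 36 and 24 of them and the knockout libraries 18, 154 and 78, or 0.855, 0.902 and 0.514 CPM against 0.599, 3.86 and 1.85 CPM. Only knockout replicates 2 and 3, the libraries with the high macrophage markers, lay above the wild type range. The paired interval of the log2 change, -0.17 to 1.54, included 0 (limma adjusted p = 0.313). Set against the wild type libraries, knockout replicate 1 alone gave a log2 change of -0.13.

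**Figure D1:**
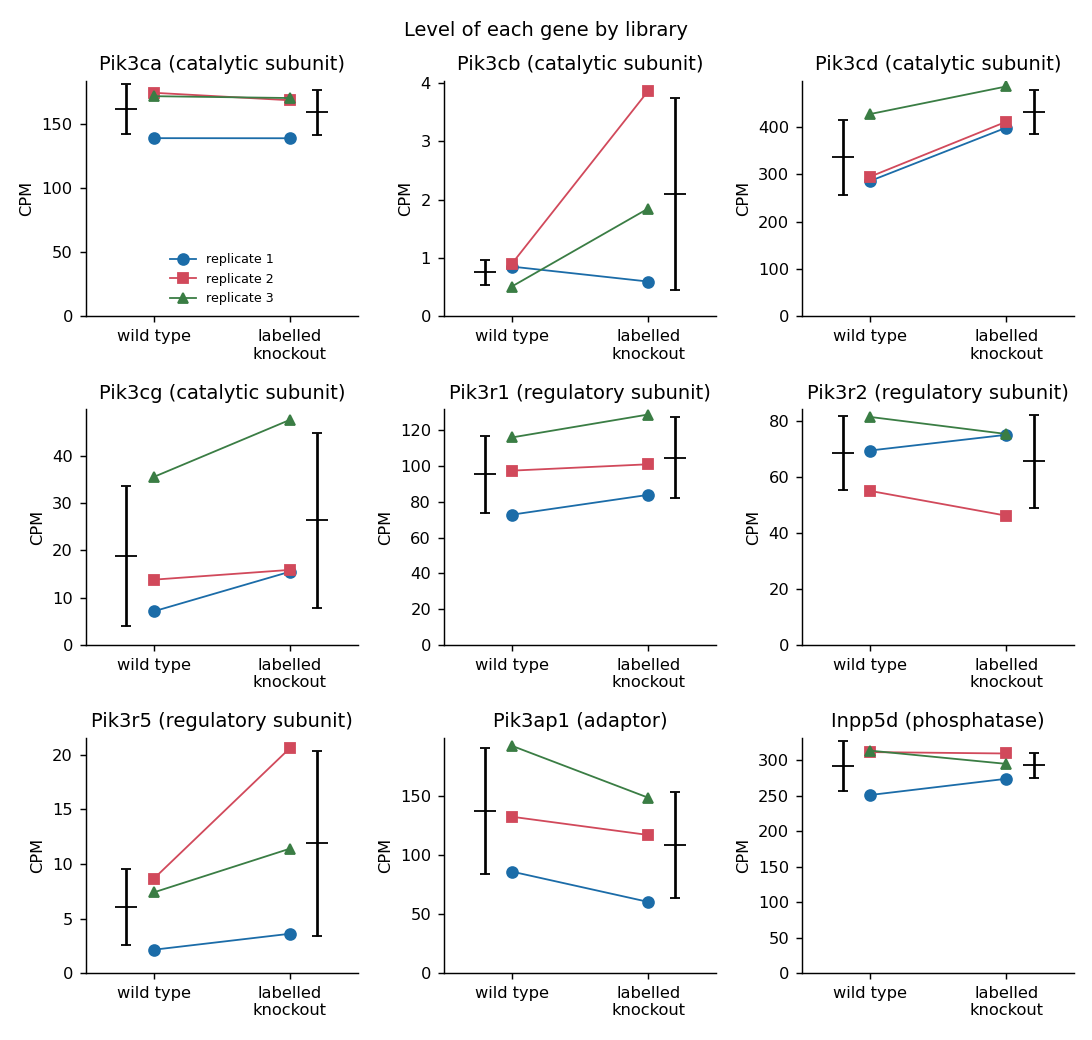
Level of each of the 9 genes in CPM (vertical axes from 0) in the wild type and labelled knockout libraries, where each line connects a pair and the black marks give the mean with its SD (n = 3 per group). Pik3cd and Pik3r5 are higher and Pik3ap1 lower in the labelled knockout along each of the 3 lines, Pik3ca and Inpp5d have pair ratios from 0.940 to 1.09, and the 2 groups overlap in every panel.

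Among the regulatory subunits, Pik3r1, which encodes p85 alpha and its shorter forms, did not pass the test. Pik3r1 stood at 72.9, 97.5 and 116 CPM in the wild type libraries, against 84.0, 101 and 129 CPM in their knockout partners. Both groups had the same order of replicates, and the pair ratios were 1.15, 1.04 and 1.11. The log2 change of 0.13 had a paired interval of -0.0057 to 0.27 (limma adjusted p = 0.251).

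Pik3r2, which encodes p85 beta, stood at 69.4, 55.0 and 81.4 CPM in the wild type libraries, against 75.0, 46.1 and 75.3 CPM in their knockout partners. It was higher in pair 1 and lower in pairs 2 and 3, and replicate 2 was the lowest in both groups. The paired interval of its log2 change was -0.29 to 0.13 (limma adjusted p = 0.593).

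Pik3r5, which encodes p101, a regulatory partner of p110 gamma, had the largest log2 change of CPM + 1 of the 9 genes, 0.76, whereas edgeR with the pairs gave 0.90 for Pik3r5 and 1.26 for Pik3cb. The value for Pik3r5 depended on single libraries and was 1.37 without knockout replicate 1. Without knockout replicate 2 it was 0.25, where Pik3cg (0.79), Pik3cd (0.41) and Pik3cb (0.29) rose more. Without wild type replicate 1 it was 0.25, where Pik3cb (0.73) and Pik3cd (0.28) rose more and Pik3cg (0.035) less. Pik3r5 stood at 2.16, 8.65 and 7.40 CPM in the wild type libraries (81, 345 and 346 reads), against 3.63, 20.6 and 11.4 CPM in their knockout partners (109, 821 and 481 reads). The knockout library was 1.68, 2.38 and 1.54 times the wild type one in pairs 1, 2 and 3. Replicate 1 was lowest in both groups, and the groups overlapped because knockout replicate 1 lay below wild type replicates 2 and 3. The paired limma interval of Pik3r5 was 0.35 to 1.16, and that without the pairs was -0.89 to 2.41. DESeq2 with the pairs called it higher (adjusted p = 0.00464), and limma and edgeR with the pairs did not (adjusted p = 0.116 and 0.110).

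Macrophage transcripts moved with part of this difference. The median log2 change of the 15 markers was -0.55, 2.74 and 1.91 in pairs 1, 2 and 3, and that of Pik3r5 was 0.55, 1.16 and 0.56. In pair 1, with 81 and 109 reads of Pik3r5, the marker sum was 227 CPM in the knockout library and 243 CPM in its partner. Ctss alone made up 190 and 184 CPM of these sums, and 4 of the 15 markers were higher in the knockout library. Knockout replicate 1 set against all 3 wild type libraries gave -0.46 for Pik3r5, a comparison across replicate numbers. The part of macrophage RNA in the values of Pik3r5, Pik3cb and Pik3cg was not tested, and in bulk RNA more cells of a type and more RNA per cell cannot be told apart.

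**Figure D2:**
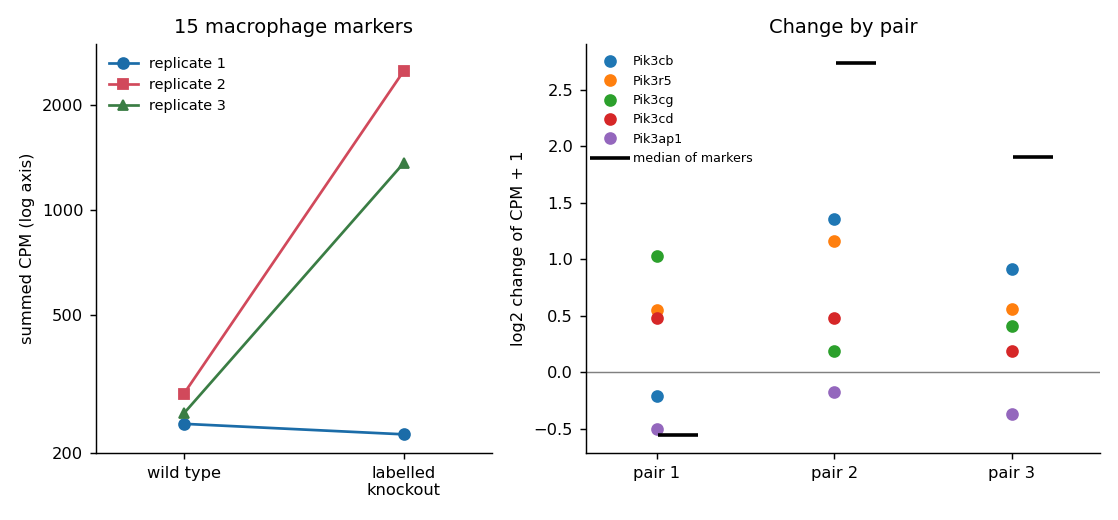
Left, summed level of 15 macrophage and myeloid markers in CPM (log axis) by library, with lines joining replicate numbers; right, log2 change of CPM + 1, labelled knockout minus wild type, of 5 genes in each pair, with a black bar for the median of the 15 markers. The markers are high in knockout replicates 2 and 3 alone, at 2512 and 1366 CPM, while Pik3r5 and Pik3cd lie above 0 and Pik3ap1 below 0 in all 3 pairs.

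Pik3ap1 was the 1 gene of the set that was lower by a sizeable amount in every pair. Pik3ap1 stood at 85.9, 132 and 192 CPM in the wild type libraries, against 60.3, 117 and 148 CPM in their knockout partners. The knockout library held 0.702, 0.884 and 0.772 times the wild type level, a smaller difference than the 2.24-fold range among wild type libraries, so the groups overlapped. The log2 change was -0.35, with a paired limma interval of -0.54 to -0.16 and one of -1.36 to 0.66 without the pairs. DESeq2 with the pairs called it lower (adjusted p = 0.00671), while limma and edgeR with the pairs did not (adjusted p = 0.119 and 0.138). Without knockout replicate 1 and ignoring pairs, the log2 change was 0.020.

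Inpp5d, the phosphatase, stood at 251, 311 and 313 CPM in the wild type libraries, against 274, 309 and 295 CPM in their knockout partners. The labelled knockout values lay within the wild type range, and the pairs went in different directions, with ratios of 1.09, 0.994 and 0.940. The paired interval of the log2 change was -0.14 to 0.16, around 0.0093 (limma adjusted p = 0.945).

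**Figure D3:**
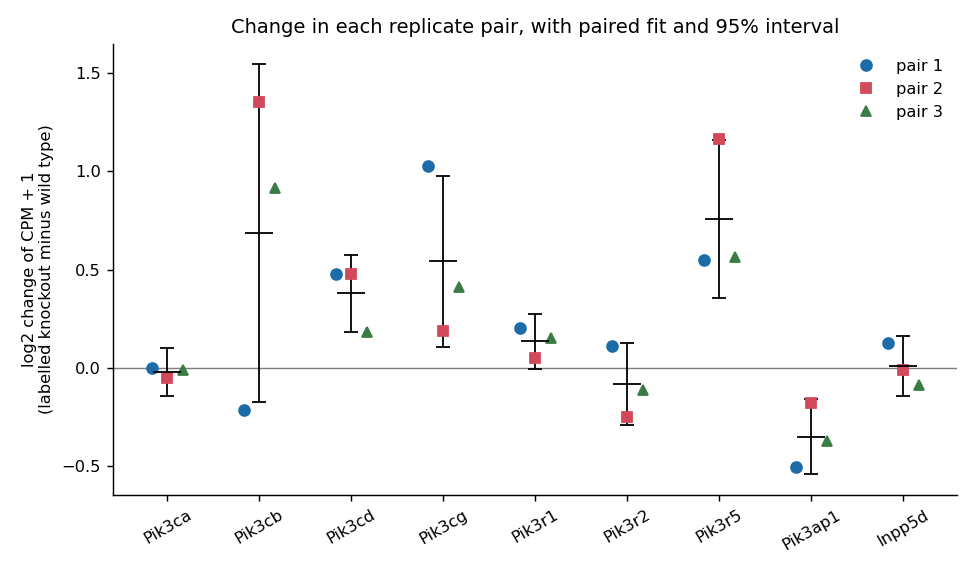
Log2 change of CPM + 1, labelled knockout minus wild type (vertical axis), of each gene in pairs 1, 2 and 3 (symbols), with the paired limma estimate and its 95% interval (black). The paired intervals of Pik3cd, Pik3cg, Pik3r5 and Pik3ap1 leave out 0, and those of the other 5 genes include it. No adjusted p over all genes was under 0.05. In the limma fit without pairs, the main one and not drawn, the interval of every gene includes 0. There it was -0.053 to 0.81 for Pik3cd, -1.07 to 2.16 for Pik3cg, -0.89 to 2.41 for Pik3r5 and -1.36 to 0.66 for Pik3ap1.

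Counted together, 0 of the 9 genes passed limma's test with Benjamini-Hochberg adjustment at 0.05, where 0.00949% of all tested genes passed without the pairs and 0.873% with them. EdgeR with the pairs called 0 of 9, against 0.37% of all. DESeq2 with the pairs called 2 of 9 higher (Pik3cd and Pik3r5), against 3.02% of all, and 1 of 9 lower (Pik3ap1), against 3.99% of all. The groups did not overlap for 0 of 9, against 9.5% of all tested genes. In all 3 pairs, 4 of 9 were higher (Pik3cd, Pik3cg, Pik3r1 and Pik3r5), against 16.7% of all, and 2 of 9 lower (Pik3ap1 and, by 0.049 or less on the log2 scale, Pik3ca), against 29.9% of all. The median log2 change of the 9 was 0.13, and that of all tested genes -0.028. Without wild type replicate 1 the median of the 9 was -0.046, without knockout replicate 3 it was 0.0032, and without wild type replicate 3 it was 0.29. Without pair 1, the paired limma fit called Pik3r5 higher (log2 change 0.86, adjusted p = 0.0175), where it called 4.61% of all genes higher. That fit rests on pairs 2 and 3 alone, those whose knockout libraries had the high macrophage markers. Pik3cb, admitted by the filter through those same libraries, is given no call there.

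Levels can be compared between genes once divided by length. Exon lengths of 4176 to 10079 bases were taken from GENCODE M21, whose build differs from mm9, so levels in CPM per kb are approximate. Pik3cd led with 53.7 ± 12.6 (SD, n = 3) in wild type and 68.9 ± 7.505 in the labelled knockout, followed by Inpp5d with 38.4 ± 4.67 and 38.5 ± 2.35. Pik3ap1 followed at 24.5 ± 9.54 and 19.5 ± 7.99, Pik3ca at 17.8 ± 2.17 and 17.5 ± 1.94, Pik3r2 at 16.4 ± 3.16 and 15.7 ± 4.01, and Pik3r1 at 9.47 ± 2.15 and 10.4 ± 2.25. Pik3cg (2.23 ± 1.76 and 3.13 ± 2.19), Pik3r5 (1.09 ± 0.620 and 2.14 ± 1.53) and Pik3cb (0.105 ± 0.0295 and 0.293 ± 0.229) were far lower.

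Pik3cd exceeded Inpp5d in 6 of 6 libraries, by 1.15 to 2.00 times, with no overlap of their ranges in either group. Ranges overlapped in both groups between Pik3ap1 and Pik3ca, between Pik3ca and Pik3r2, and between Pik3cg and Pik3r5, so the order within these neighbours is not beyond their spread. Those of Inpp5d and Pik3ap1 overlapped in wild type alone and those of Pik3r2 and Pik3r1 in the labelled knockout alone. Pik3r1 exceeded Pik3cg in 6 of 6 libraries, by 2.26 to 8.57 times, and Pik3r5 exceeded Pik3cb by 3.28 to 18.7 times. Of the summed length-scaled level of the 4 catalytic subunits, Pik3cd made up 73.7%, 69.2% and 74.6% in wild type and 78.7%, 75.8% and 75.9% in the labelled knockout. Pik3ca made up 24.7%, 28.2% and 20.7% and 18.9%, 21.4% and 18.4%, and Pik3cb at most 0.620%.

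**Figure D4:**
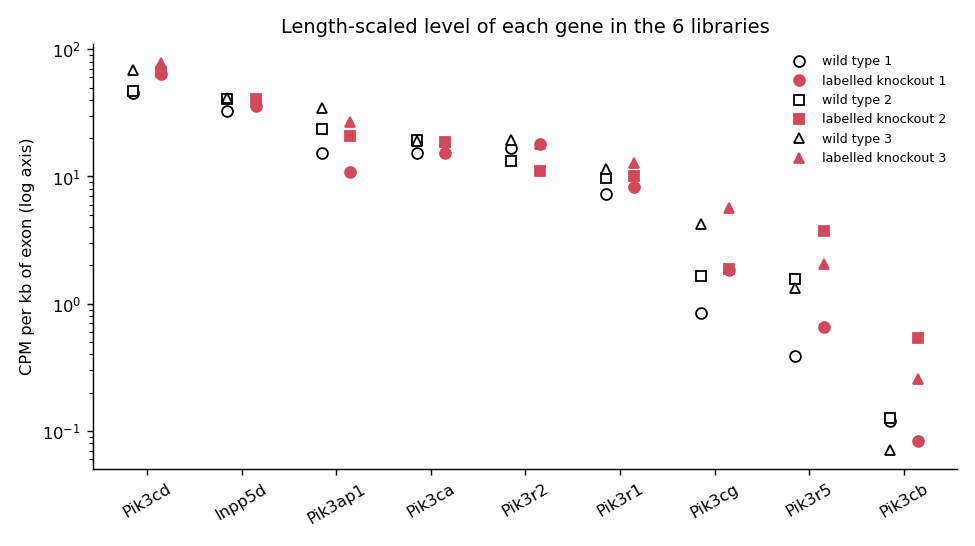
Level in CPM per kb of exon (log axis) of the 9 genes in each of the 6 libraries, ordered by mean; open symbols are wild type, filled symbols labelled knockout, and the shape gives the replicate number. Pik3cd is at 45.6 to 77.5 and Pik3cb at 0.0714 to 0.537 CPM per kb.

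The genes most like Pik3cd across the 6 libraries were Gbp3, a guanylate-binding GTPase (Pearson r = 0.99 on log2 of CPM + 1), Lnx2, a ubiquitin ligase (0.99), and Cotl1, an actin-binding protein (0.98). Gbp3 stood at 50.3, 52.4 and 121 CPM in the wild type libraries, against 102, 99.1 and 166 CPM in their knockout partners. Like Pik3cd, it was lowest in wild type replicates 1 and 2 and highest in knockout replicate 3. Of 8134 genes with a mean of at least 10 CPM, 117 had an r of 0.9 or more, and the libraries share replicate numbers and 1 scaling, so these values are descriptions. Among the 9 genes, Pik3cg was most like Pik3cd (r = 0.86), then Pik3r1 (0.76), Pik3r5 (0.52) and Inpp5d (0.41), and Pik3ap1 had an r of 0.32.

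Genes around the class I enzymes were read from 7 further lists. Of all tested genes, limma passed 0.00949% without the pairs and 0.873% with them. DESeq2 with the pairs called 3.02% higher and 3.99% lower. At such shares, a count of 0 in a short list is no result about that list. Of the other class I genes, 0 of 3 passed in either limma fit: Pik3ip1, which encodes a membrane inhibitor of PI3K, was at 8.75 ± 4.22 and 7.73 ± 3.29 CPM, and Pik3r6, which encodes another gamma partner, at 7.97 ± 6.08 and 7.57 ± 5.69. The third, Pik3r3, which encodes the regulatory subunit p55 gamma and was named after its values were seen, had 0.882, 3.23 and 4.64 CPM in wild type against 2.00, 5.50 and 7.66 CPM in the labelled knockout. It was higher in 3 of 3 pairs, by 0.67, 0.62 and 0.62 on the log2 scale (paired limma adjusted p = 0.112, DESeq2 0.0585), and its groups overlapped. Of class II and III PI3K genes, which make other phosphoinositides, 0 of 4 tested passed in limma, and DESeq2 with the pairs called Pik3c2a higher (adjusted p = 0.0109). Pik3c2a was at 126 ± 22.5 and 167 ± 49.6 CPM and Pik3c3 at 93.2 ± 16.8 and 90.2 ± 15.9.

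Among phosphatases other than Inpp5d, 0 of 23 tested passed in limma, with a median log2 change of -0.037. DESeq2 with the pairs called 1 higher and 1 lower. The 1 higher, Inpp4b, had a wild type mean of 0.741 CPM. It passed the filter through the labelled knockout libraries, so no result is drawn from its call. Mtmr3, a phosphatase of PI3P, was at 127 ± 21.0 and 119 ± 20.3 CPM. Among the kinases that supply PI(4,5)P2, 0 of 10 passed in limma or in DESeq2 (median 0.062), with Pi4ka at 130.5 ± 32.2 and 136 ± 15.7 CPM and Pip4k2b at 97.7 ± 12.4 and 91.8 ± 6.99.

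Upstream of the enzymes, 2 of 23 tested receptors, adaptors and RAS genes fell in the paired limma fit and 21 did not pass. Their median was 0.014. In that fit 78 of all 10533 tested genes fell. Insr, the insulin receptor gene, had 34.6, 30.9 and 35.9 CPM in the wild type libraries against 9.05, 10.3 and 7.85 CPM in their knockout partners, and Igf1r, the IGF1 receptor gene, had 50.0, 58.0 and 40.2 CPM against 30.9, 34.9 and 24.0 CPM. Neither gene's groups overlapped, and the groups did not overlap for 9.5% of all tested genes. Insr fell by 1.80 on the log2 scale (limma adjusted p = 0.0187 paired, 0.0637 unpaired) and Igf1r fell by 0.70 (0.0313 paired, 0.947 unpaired). Both encode tyrosine kinase receptors that reach PI3K through IRS adaptors. Of the inhibitory receptors and partners that recruit or work with SHIP1, 0 of 10 passed in limma (median 0.037), while DESeq2 with the pairs called Pirb higher and Cd22 lower (adjusted p = 0.00198 and 4.58e-07). The 2 with the highest means were Cd72, at 115 ± 2.25 and 106 ± 10.3 CPM and the Fc receptor gene Fcgr2b, at 109 ± 62.5 and 107 ± 33.4. Of PIP3 effectors, 0 of 25 tested passed in limma (median -0.048), while DESeq2 with the pairs called Vav3 higher (adjusted p = 0.0206). The 2 with the highest means were the phospholipase gene Plcg2, at 495 ± 39.9 and 483 ± 29.2 CPM and Plekha2, which encodes a lipid-binding adaptor, at 332 ± 7.35 and 274 ± 34.6. The lists' medians moved with single libraries. Without wild type replicate 1 the median of the PI(4,5)P2 kinases was -0.090 and that of the phosphatases -0.13, and leaving out knockout replicates 1 or 3 gave the other class I genes medians of 0.76 and -0.15, respectively.

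**Figure D5:**
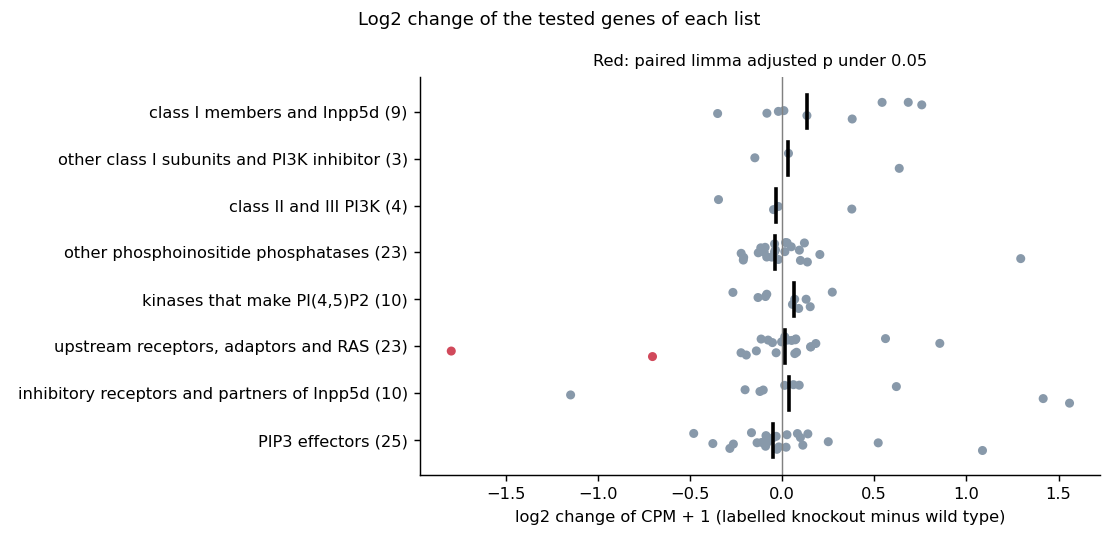
Log2 change of CPM + 1, labelled knockout minus wild type (horizontal axis), of each tested gene of the 9-gene set and of 7 related lists (rows, with the number of tested genes); black bars are medians, and vertical scatter has no meaning. The red points are Insr at -1.80 and Igf1r at -0.70, and the medians of the 7 lists lie between -0.048 and 0.062 with all 6 libraries.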

How the data were processed

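The deposited values are a signal on a CPM scale: each is a gene's read number over a scaled library total. Although they are headed FPKM, 100% of them were whole multiples of a library's step (tolerance 0.01 reads), which gave back whole reads. Tools listed in the submitters' processing notes, with no role or order, are edgeR, HTSeq, STAR 2.4.2a and CASAVA, and the build is mm9. Libraries were directional per the labels' protocols, and the strand setting used for counting is unknown.

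Genes with a mean of at least 1 were tested with limma 3.58.1 (R 4.3.3) on log2(value + 1), trended variance, two-sided, Benjamini-Hochberg adjustment over 10533 genes, threshold 0.05. The fit without pairs is the main one. Equal numbers were treated as pairs because both groups carry them, and both fits are given. The labels do not say what a number marks. Deviations from group means correlated at 0.73, 0.73 and 0.84 between libraries of equal number. Libraries of unequal number were not compared in this way, and replicate 1 of both groups stood apart on the first principal component. These correlations therefore cannot show that replicates 2 and 3 belong with those of the same number. Every paired interval and call rests on that matching. EdgeR 4.0.16 (quasi-likelihood) and DESeq2 1.42.0 were run on the recovered reads. The fits were also run on simulated reads with planted changes, which does not show how well they perform on these libraries. No 2 libraries agreed within counting noise. Figures used matplotlib 3.10.9.

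The members and lists were chosen with earlier results of these data known. Named genes are all members, and from each further list those that passed in either limma fit or, where none did, the 2 with the highest mean; 3 genes most like Pik3cd were named by Pearson r. Of 156 listed symbols, 1 matched through a synonym. One gene that the rule would name is counted in its list but not reported here. The promoter window and its 2 motifs were set after the sequences were seen.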

Additional observations from a re-analysis of the deposited data

How the results depend on the processing

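The labels' replicate numbers were tried as a replicate block: limma called 1 gene without the block and 92 with it, edgeR 0 and 39, and DESeq2 110 and 738. At an unadjusted p under 0.05, limma without the block had 428 genes and edgeR 582. Limma without the block called 0 genes with pseudocounts of 0.1 or 5, no filter, a mean of at least 10 or quantile normalization, 3 with median-ratio size factors, 0 with each library left out in turn, and 0 without both knockout replicates 2 and 3. With the block, leaving out a pair gave 0 to 840 genes, the 840 without pair 1. Members called were 0 of 9 (0 of 7 tested with a mean of at least 10) outside the settings named next. DESeq2 with the block called 3, which changed the call of Pik3cd, Pik3r5 and Pik3ap1. Limma with the block without pair 1 called Pik3r5. Pik3cb also passed the threshold there, but on the libraries through which the filter admitted it, so it is given no call. Without pair 2 or without pair 3, that fit called 0 of 9.

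Pik3cd (log2 change 0.27 to 0.57) and Pik3cg (0.011 to 1.121) kept their direction in all 22 alternatives. Some of these could not change it. The limma block with all libraries and the other filters return the same estimate, and leaving out a pair cannot reverse a gene that is higher in every pair. Pik3ca turned to 0.035 with equal totals, 0.00068 with quantile normalization, 0.0024 and 0.0040 in edgeR without and with the block, and 0.0021 and 0.0034 in DESeq2. With 1 library left out, Pik3ca reached 0.037 (wild type 2), 0.026 (wild type 3) and 0.074 (knockout 1), Pik3r1 -0.046 (wild type 1) and -0.026 (knockout 3), Pik3r2 0.048 (wild type 3) and 0.15 (knockout 2), Pik3ap1 0.020 (knockout 1), and Inpp5d -0.096 (wild type 1), -0.032 (knockout 2) and -0.049 (pair 1). Over the single libraries and pairs left out, Pik3cb ranged from 0.29 to 1.13, Pik3r5 from 0.25 to 1.37, Pik3r1 from -0.046 to 0.29, Pik3r2 from -0.23 to 0.15, Pik3ap1 from -0.64 to 0.020 and Inpp5d from -0.096 to 0.064. Without both knockout replicates 2 and 3, Pik3cb was at -0.13, Pik3r1 at -0.16, Pik3r2 at 0.15, Pik3r5 at -0.46 and Inpp5d at -0.085, with the lone knockout library assumed to vary like wild type. The cause of these changes was not tested. Counts of reads limit Pik3cb most.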

Other observations

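DESeq2 with the pairs, which called more genes than the other tests of all 6 libraries, called genes of the related lists that limma and edgeR did not; some of them are given here, chosen after their values were seen. Il7r, the receptor for the IL7 in the medium, had a log2 change of 0.86, with 28.7, 35.7 and 132 CPM in the wild type libraries against 51.8, 83.5 and 192 CPM in their knockout partners (DESeq2 adjusted p = 2.24e-08, limma paired 0.0652). Cd22, an inhibitory coreceptor of B cells, was at 98.7, 125 and 56.2 CPM and at 62.7, 39.3 and 24.6 (log2 change -1.15, DESeq2 adjusted p = 4.58e-07, limma paired 0.0713). Pik3c2a, a class II enzyme, had a log2 change of 0.38 (DESeq2 adjusted p = 0.0109). Vav3, a guanine nucleotide exchange factor, was a low transcript, with a mean of 2.01 CPM in wild type and 4.97 CPM in the labelled knockout (DESeq2 adjusted p = 0.0206). Pirb, an inhibitory receptor of myeloid and B cells, was at 0.828, 1.78 and 1.027 CPM in wild type and at 1.13, 15.2 and 6.66 in the labelled knockout, high in the libraries with high macrophage markers (DESeq2 adjusted p = 0.00198).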
